A study of Drosophila melanogaster with 51 samples.

Results

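AGO3, Parp1, Dbp80, Gprk1, Haspin and Marf1 are 6 long protein-coding genes of Drosophila melanogaster that lie next to the centromeres, out of 13935 protein-coding genes on the chromosomes used from the RefSeq table. They were named in advance for a pattern in these same peak lists, H3K9me3 along the gene body and HP1 at the gene ends, so the positions given below describe how the genes were chosen and carry no test. The assay was CUT&RUN, which uses an antibody-tethered nuclease to cut out and sequence the DNA around a chromatin protein or mark. It was run on wing imaginal discs, the larval precursors of the wing, from wandering females, with at least 20 discs a library. The series has 51 libraries in 18 groups, and the antibodies were against HP1a (16 libraries), H3K9me3 (15), GFP (14) and H3K27me3 (6). Library titles name the genotypes HWT, K9R, yw, HP1a-control, HP1a-chromo, GFP-HP1a/GFP-HP1a, GFP-HP1a/+, CrGFP-HP1a and CrGFP-HP1chromo. Only 3 peak lists given for the series were analysed, and they hold no values of single libraries. There are therefore no replicates, depth is unknown and genotypes were not compared. The lists are not shown to pool all groups, since the names of their intervals point to HWT, ywdf and yw profiles.

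The names in the H3K9me3 list point to 2 sources. An HWT profile, marked pel and rep1, gave 2047 of its 2245 intervals, and a profile named ywdf, marked pel and rep2, gave 198. HWT larvae carried ΔHisC, a deletion of the histone genes, with an H3.2HWT replacement transgene, and came from parents with the twi-Gal4 driver and the UAS-2xEYFP reporter. All 1435 HP1 intervals carry the name ywdf with sup and merge. The sources used here do not say what ywdf, pel or sup stand for. The remaining list holds 500 background regions of an anti-GFP profile named yw, whose libraries have yw in the title but GFP-HP1a/+ as their genotype label. Most H3K9me3 intervals thus carry another name than the HP1 intervals, and the lists differ in the words pel and sup. They also differ in cutoff, with smallest −log10 q-values of 1.38 for H3K9me3 and 5.02 for HP1.

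H3K9me3 is a histone methylation that marks heterochromatin, and HP1a is the protein whose chromodomain binds it. Genes that sit inside pericentric heterochromatin are often very long because their introns hold many transposon remnants, and some, such as light and rolled, are known to need that surrounding for normal expression. The 6 genes have unrelated products. AGO3 is a PIWI-clade Argonaute protein of the germline piRNA pathway, which silences transposons. Parp1 builds poly(ADP-ribose) on chromatin proteins, and Haspin is a mitotic kinase of histone H3. Dbp80 is a DEAD-box RNA helicase, listed in the gene table under the synonym DDX19, the name of a human mRNA export helicase. Gprk1 is a G protein-coupled receptor kinase, and Marf1 is an RNA-binding regulator of mRNA in oocytes.

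In dm6 coordinates, AGO3 spans 135 kb at chr3L:23554593-23689640 and Dbp80 143 kb at chr3L:27279316-27422159. Parp1 spans 126 kb at chr3R:3461351-3587054. On 2R, Gprk1 spans 149 kb at chr2R:4322295-4471060 and Haspin 35.2 kb at chr2R:4014111-4049342. Marf1 spans 60.0 kb at chr2L:22308755-22368796. The gene table gives no strand and no exons. Gene ends are therefore called the lower-coordinate and the higher-coordinate end, and positions are kb from the lower-coordinate end, without saying which is the transcription start or which intervals lie in introns.

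Intervals were assigned to a gene if at least 1 bp lay in its body or within 1 kb of an annotated end. An interval with at least 1 bp within 1 kb of an end is called an end interval, and any other interval in the body an interior interval. The 6 genes held 124 H3K9me3 intervals and 22 HP1 intervals. H3K9me3 covered 74.0 kb, or 11.4%, of the 648 kb of gene body, and HP1 covered 13.5 kb, or 2.08%. Of the H3K9me3 intervals, 5 of 124 were end intervals (4.03%, exact binomial 95% interval 1.32 to 9.16, for counting error only). Of the HP1 intervals, 6 of 22 were (27.3%, 10.7 to 50.2). The windows within 1 kb of the ends make up 3.64% of the genes with their 1 kb flanks. By number, 16 of the 22 HP1 intervals were interior too, and 10 of these 16 lay in AGO3. By the middle base of the interval, 3 of 22 HP1 intervals (13.6%) were end intervals, all of them in AGO3 and Parp1. Without AGO3, a setting chosen after the values were seen, 4 of 10 were (40%).

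**Figure D1:**
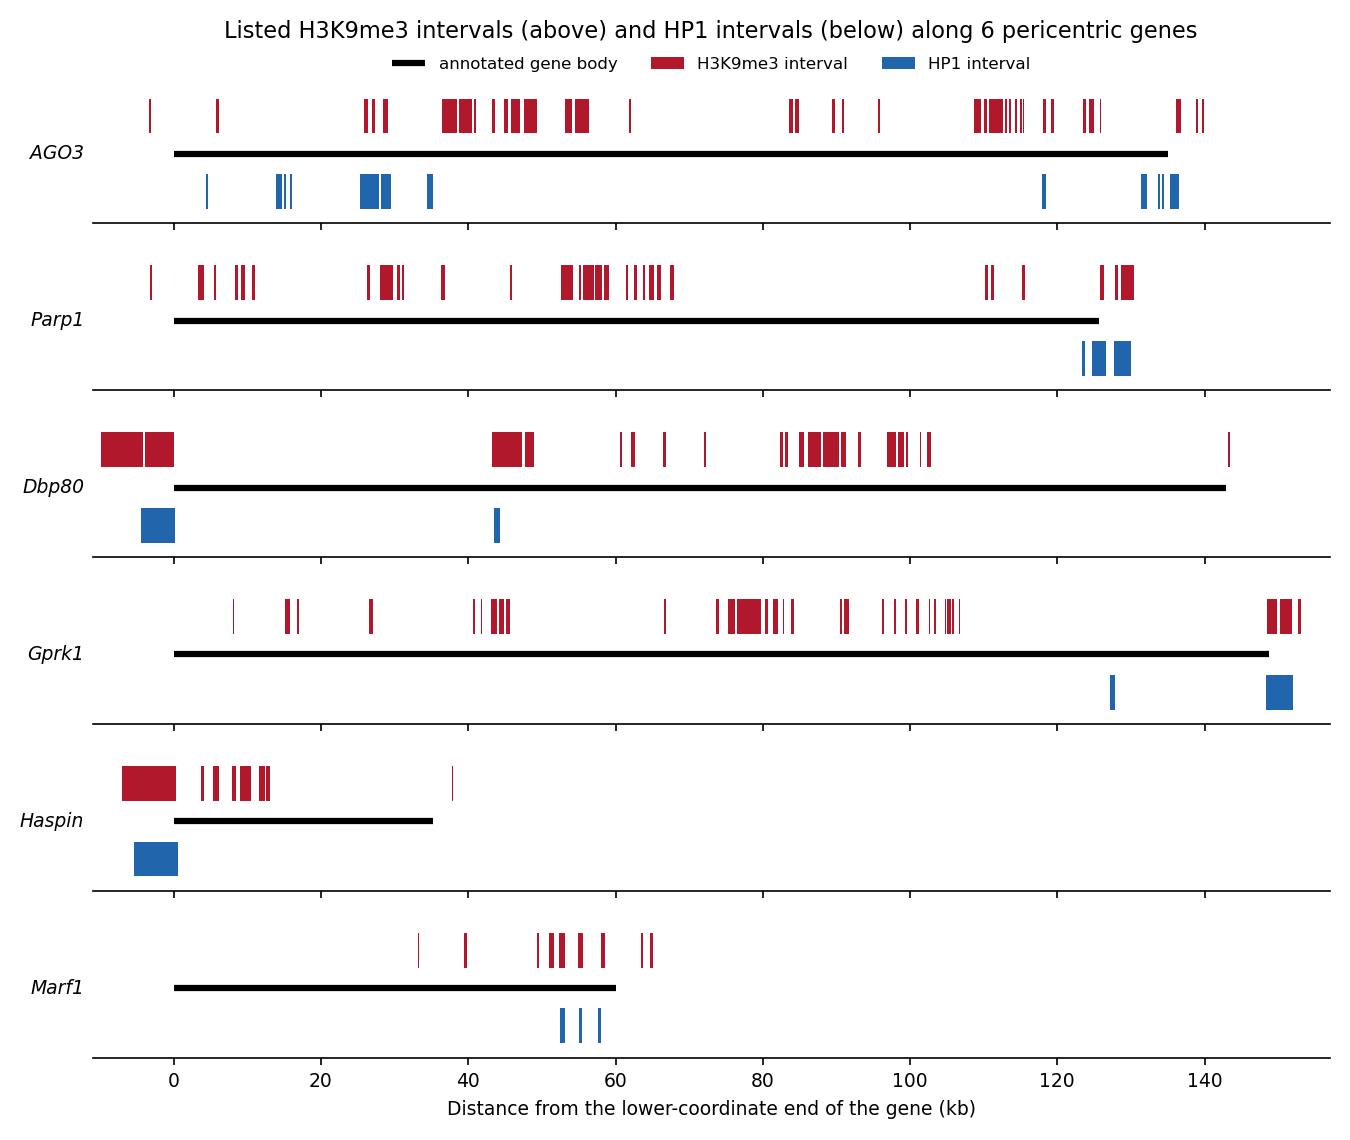
Positions of listed H3K9me3 intervals (red, above) and HP1 intervals (blue, below) along the 6 genes (black bars), in kb from the lower-coordinate end of each gene, for intervals within 5 kb of the gene; the shortest are drawn 0.25 kb wide. H3K9me3 is scattered through the bodies, while HP1 stands at a single end in 5 genes and only in the interior of Marf1. Interior HP1 lies in every gene except Haspin, with most of its intervals in AGO3.

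Each of the 6 genes held an interior H3K9me3 interval. Among other protein-coding genes this was so for 0.696% of all 13929, for 19.5% of the 205 that are pericentric, and for 64.3% of the 42 pericentric genes of at least 20 kb. An HP1 end interval was present in 5 of the 6 genes, against 4.1%, 53.2% and 59.5% of the same 3 sets. Both features together were present in 5 of the 6, against 0.553%, 15.1% and 45.2%. An interior HP1 interval was also present in 5 of the 6, Haspin being the exception, against 1.85%, 20.5% and 57.1%. The genes were chosen on these intervals, so the counts are not a result about them, and the shares show that interior H3K9me3 with HP1 at an end is common among long pericentric genes.

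By the share of the body under H3K9me3, the order was AGO3 with 15.6%, Haspin with 14.5%, Parp1 with 11.7%, Dbp80 with 11.3%, Gprk1 with 9.21% and Marf1 with 5.45%. By the share under HP1, the order was AGO3 with 5.87%, Marf1 with 2.56%, Haspin with 1.72%, Parp1 with 1.05%, Gprk1 with 0.726% and Dbp80 with 0.716%. No spread between replicates is available, so neighbours in these orders cannot be separated. The median of the 6 genes was 11.5% under H3K9me3 and 1.38% under HP1, against 1.90% and 0.981% in the 42 other long pericentric genes. Of those 42 genes, 6 had more of the body under H3K9me3 than the median of the 6, and 9 held no interval of either list. AGO3 had the most H3K9me3 intervals of the 6 genes, with 32 in its body. By this count it stood at rank 3 of 211 pericentric protein-coding genes, tied with Myo81F. By the share of the body under H3K9me3 it stood at rank 19.

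**Figure D2:**
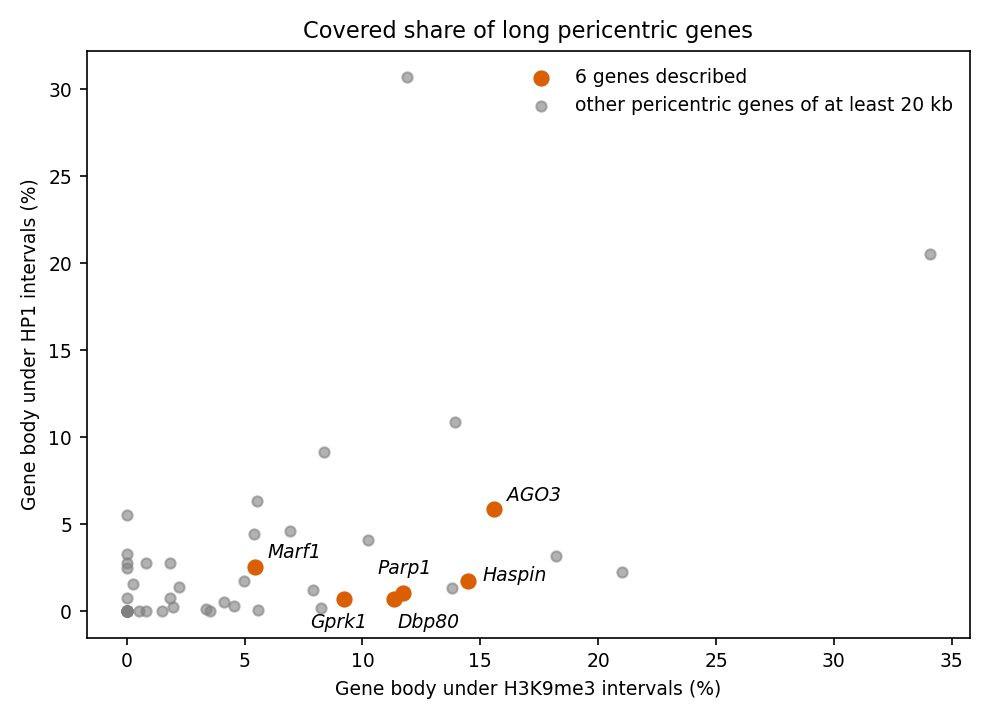
Share of the gene body under H3K9me3 intervals (x axis, percent) and under HP1 intervals (y axis, percent) for the 6 genes (orange) and the 42 other pericentric protein-coding genes of at least 20 kb (grey). The 6 genes lie between 5.45% and 15.6% on the H3K9me3 axis and at or below 5.87% on the HP1 axis, inside the range of the other genes, which reaches 34.1% and 30.7%.

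AGO3 carried the most HP1 of the 6 genes, with 11 intervals in its body and another just beyond it. Its H3K9me3 lay in 2 dense runs, from 25.8 to 61.9 kb and from 108.7 to 125.9 kb, with a further 5 intervals between 83.6 and 95.8 kb and a single one at 5.75 kb. The longest stretch without a listed H3K9me3 interval was 21.6 kb, from 61.9 to 83.6 kb. The most enriched HP1 call of the gene was not at an end but at 25.3 to 29.5 kb, listed as intervals of 2623 and 1355 bp with a fold enrichment of 14.5. Fold enrichment is the authors' ratio of signal to the peak caller's expectation, and it belongs to the whole call. These intervals touched 3 H3K9me3 intervals of a call with a fold enrichment of 10.7. At the higher-coordinate end, an HP1 call of fold enrichment 12.6 was listed as an interval of 263 bp inside the gene, 582 bp from the end, and another of 1249 bp beginning 280 bp beyond it. The interval beyond the end also lay over the annotated lncRNA:CR45174, which begins 986 bp beyond the end of AGO3, so it cannot be assigned to either gene. Another strongly enriched call, at 131.3 to 132.2 kb, had a fold enrichment of 11.6. AGO3 also held the only background region of the 6 genes, 494 bp at 17.2 kb, which touched no HP1 interval.

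Parp1 held 26 H3K9me3 intervals in its body and 2 HP1 intervals, both near the higher-coordinate end. No HP1 interval was listed over the first 123 kb of the gene, 98.2% of its length. H3K9me3 ran from 3.28 to 68.0 kb, with its densest part from 52.6 to 68.0 kb, and after a stretch of 42.2 kb without an interval it reappeared at 110.2 kb. The highest fold enrichment among the interior H3K9me3 intervals was 9.49, in an interval of 1648 bp at 52.6 kb. The HP1 interval across the end was 1866 bp wide with a fold enrichment of 11.9, and the interior one, 2.01 kb from the end, was 303 bp wide with 3.41. None of the 26 H3K9me3 intervals in the body touched HP1. The H3K9me3 interval that did lay 77 bp beyond the end and had a fold enrichment of 7.99.

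Dbp80 held 19 H3K9me3 intervals in its body and 2 HP1 intervals, and here the marked end was the lower-coordinate one. An HP1 interval of 4658 bp with a fold enrichment of 15.7 had 236 bp inside the gene, and an H3K9me3 interval of 3987 bp with a fold enrichment of 17.3 had 42 bp inside it. The next 43.2 kb of the gene held no H3K9me3 interval. H3K9me3 then began with an interval of 4132 bp at 43.2 kb, the widest in the interior of any of the 6 genes, and this was also where the other HP1 interval lay, 787 bp wide with a fold enrichment of 3.03. Further H3K9me3 ran from 60.6 to 102.8 kb and covered 50.8% of the densest of 10 equal parts of the gene. The last 40.1 kb of the body held no interval of either list. The annotated lncRNA:CR46250 lies inside Dbp80 at 85.5 kb and had 672 bp under H3K9me3.

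Gprk1, the longest of the 6 genes, had the strongest HP1 end. An HP1 interval of 3636 bp across the higher-coordinate end had a fold enrichment of 36.8, rank 2 of the 1435 intervals of that list. Of its length, 403 bp lay inside the gene. The H3K9me3 interval over the same end was 1344 bp wide with a fold enrichment of 14.3. In the interior, 30 H3K9me3 intervals lay between 8.01 and 106.7 kb and were followed by 41.8 kb without an interval up to the end interval. The most enriched interior call, with a fold enrichment of 27.4, came from the ywdf profile and was listed as intervals of 244 and 379 bp at 82.7 to 84.2 kb. The most enriched from HWT, at 96.3 to 98.2 kb, had 17.3. The only interior HP1 interval, 677 bp at 127.2 kb with a fold enrichment of 3.30, lay in the stretch without a listed H3K9me3 interval.

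Haspin, the shortest of the 6 genes, held no interior HP1 interval. Its lower-coordinate end lay under an HP1 interval of 5968 bp with a fold enrichment of 19.6 and an H3K9me3 interval of 7367 bp with a fold enrichment of 19.6, with 605 and 360 bp inside the gene. A further 6 H3K9me3 intervals lay between 3.70 and 13.1 kb, with fold enrichments of 5.78 to 9.19. The remaining 22.1 kb, 62.8% of the gene, held no interval of either list. Haspin thus combined H3K9me3 on the side of the HP1 end with an unlisted other side. In Dbp80 and Gprk1, by contrast, a long stretch without a listed H3K9me3 interval lay next to the HP1 end. In Dbp80 the part of the body next to the opposite end held none either.

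Marf1 did not show the named pattern. It held no HP1 interval within 1 kb of either end, and the nearest lay 2.08 kb from the higher-coordinate end. Its 3 HP1 intervals lay at 52.5, 55.0 and 57.6 kb, with fold enrichments of 14.6, 4.25 and 6.64. The first 2 of them lay within H3K9me3 intervals of 844 and 614 bp, with fold enrichments of 7.43 and 5.66. No H3K9me3 interval was listed in the first 33.1 kb, 55.1% of the gene, and 5 of the 7 H3K9me3 intervals lay beyond 49 kb. In Marf1 both lists thus lay together on the higher-coordinate side of the body.

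Across the 6 genes, the HP1 end intervals were wide and strongly enriched. Their median width was 2751 bp, and their fold enrichments ran from 11.9 to 36.8 with a median of 14.2. The 16 interior HP1 intervals were 662 bp wide at the median, and their fold enrichments ran from 2.88 to 14.6 with a median of 4.23, and the ranges overlapped only through the calls in AGO3 and Marf1 described above. H3K9me3 showed the same order, with a median fold enrichment of 14.3 in the 5 end intervals and 5.77 in the 119 interior intervals, although interior calls reached 27.4. Parts of a call carry the same fold enrichment, so the intervals are not independent. The genes were chosen for HP1 at their ends, and a wide interval reaches an end window more easily than a narrow one. By the middle base, only 3 of the 22 HP1 intervals were end intervals. The contrast of end and interior intervals in width and fold enrichment therefore carries no test. It is not given here for the other long pericentric genes.

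**Figure D3:**
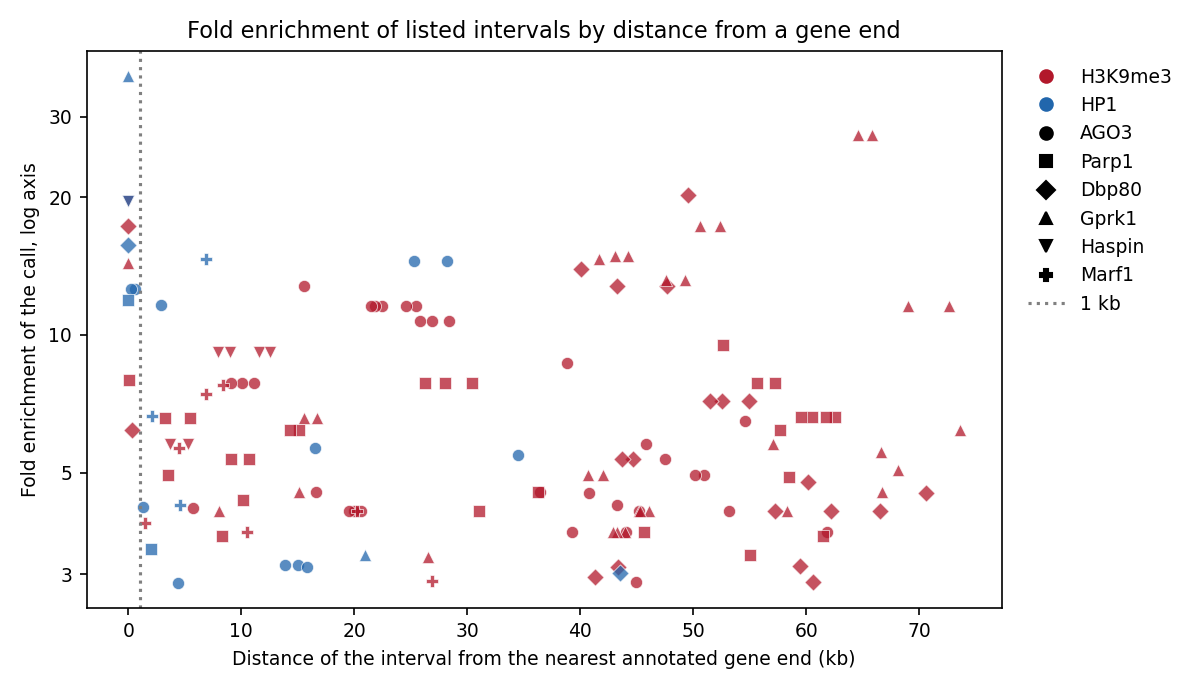
Fold enrichment of the call behind each interval (y axis, log scale) against the distance of the interval from the nearest annotated gene end (x axis, kb), for H3K9me3 (red) and HP1 (blue), with a marker for each gene and a dotted line at 1 kb. All 6 HP1 end intervals lie at or above 11.9, while 12 of the 16 interior ones lie below 10. The genes were chosen for HP1 at their ends, so this contrast carries no test.

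HP1 and H3K9me3 met both at the ends and in the interior. Of the 6 HP1 end intervals, 5 touched an H3K9me3 interval, and the exception was the 263 bp interval inside AGO3. An HP1 end interval that touched H3K9me3 was present in 5 of the 6 genes (83.3%), against 35.7% of the 42 other long pericentric genes. Among genes with an HP1 end interval, these were 5 of 5 and 15 of 25 (60%). For AGO3 this rests only on the interval beyond the end, which also lies over an lncRNA and cannot be assigned to either gene. The 6 genes were chosen on these lists, so the shares carry no test. In the interior, 6 of 16 HP1 intervals touched H3K9me3, and 7 of 119 H3K9me3 intervals touched HP1. Over ends and interior together, 11 of 22 HP1 intervals (50%, 28.2 to 71.8) and 11 of 124 H3K9me3 intervals (8.87%, 4.51 to 15.3) touched the other list. The same shares over all 1435 HP1 and 2245 H3K9me3 intervals were not computed. These counts therefore do not show a trait of the 6 genes. The interior HP1 intervals that touched H3K9me3 had a median fold enrichment of 10.1, and the 10 that did not had 3.36.

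The HP1 end was also the side on which both lists continued beyond the gene. In the 10 kb next to that end, HP1 covered 31.4% to 81.8% and H3K9me3 23.3% to 96.4% of the sequence in the 5 genes. In the 10 kb next to the opposite end, no HP1 interval was listed in any of the 5, and H3K9me3 covered 0.28% to 5.84%. No gene of the 6 had HP1 within 1 kb of both ends, against 9.52% of the other long pericentric genes. Of those, 21 had HP1 at a single end. Next to that end their median cover was 17.5% for HP1 and 16.1% for H3K9me3, and next to the opposite end 0% and 0.55%. HP1 covered more of the flank at the HP1 end in 18 of the 21, and H3K9me3 in 15. The end was picked by its HP1 interval, so its HP1 cover is not an independent measure. In Marf1 neither flank held HP1, and H3K9me3 covered 5.4% below and 6.71% beyond the gene.

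**Figure D4:**
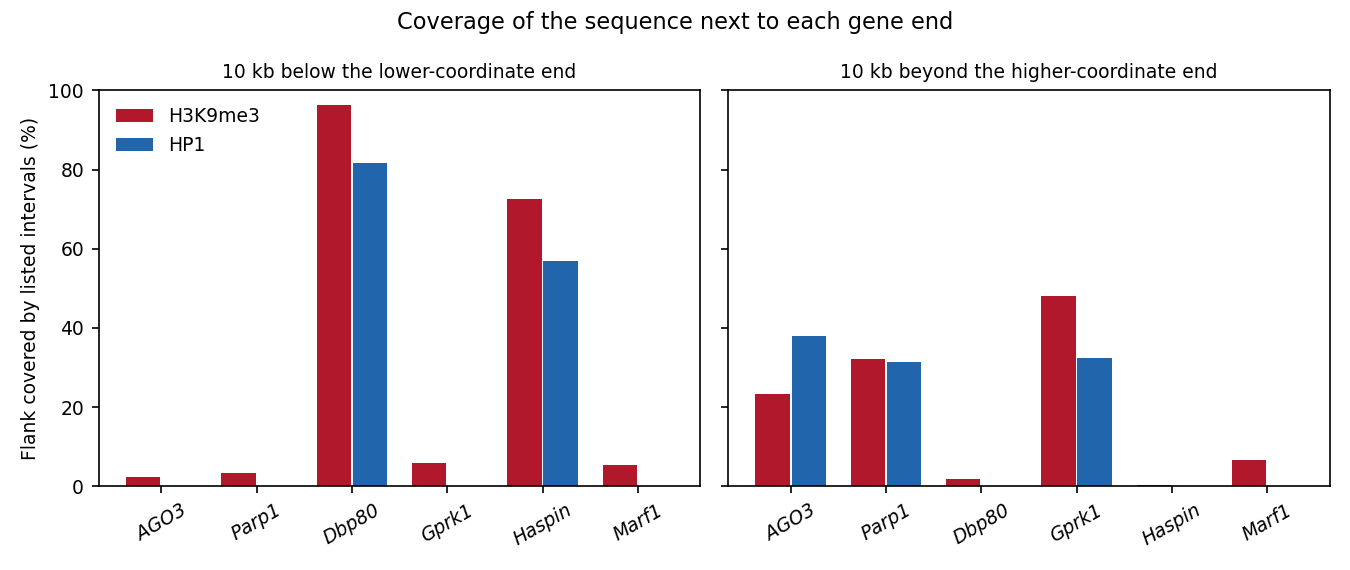
Share of the 10 kb below the lower-coordinate end (left) and beyond the higher-coordinate end (right) of each gene under listed H3K9me3 intervals (red) and HP1 intervals (blue), in percent. Each gene except Marf1 has HP1 on a single side, where H3K9me3 is also higher; bars for HP1 on the other side are at 0%.

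The lists hold fewer calls than the peak caller numbered, and this bears on the empty stretches. Calls are numbered in order of position, so numbers missing between listed calls of a gene mark calls that were made but not listed. In AGO3, 9 HP1 calls were listed of 24 numbers from the first to the last call in the body, and 13 of the missing numbers fell between 35.2 and 117.9 kb, where H3K9me3 was listed and HP1 was not. In Dbp80, 9 HP1 numbers were missing between the end interval and the interval at 43.5 kb, and 3 numbers of HWT H3K9me3 in nearly the same stretch. Over the 6 genes 19 of 43 HP1 numbers were listed, 78 of 93 of HWT H3K9me3 and 8 of 30 of ywdf H3K9me3. Where no listed call stands on the far side of the body, as for HP1 in Parp1, the missing numbers cannot be placed. Around the longest stretch without an H3K9me3 interval, up to 1 HWT number was missing in Parp1 and in Gprk1. It was up to 2 in Haspin, up to 3 in Marf1 and 0 in AGO3. Numbers of ywdf H3K9me3 calls are not in these counts. The stretch lay between listed ywdf calls numbered 2972 and 2983 in Parp1, and 1065 and 1075 in Gprk1. A stretch without a listed interval is therefore not by itself shown to lack HP1 or H3K9me3.

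The mean pattern of the 6 genes was then compared with that of 20 other long pericentric genes that held at least 3 H3K9me3 intervals and 1 HP1 interval. The measure was the cosine similarity of 20 values to the mean of the 6 genes. The values were the share of covered bases in 10 equal parts of the gene for each list, scaled by its own sum. They compare the distribution along the gene and not the amount covered. The 3 most like this mean were d4 (0.86), CG40006 (0.73) and MFS17 (0.69). With the values of the compared gene turned end to end, d4 had 0.90, CG40006 0.49 and MFS17 0.48, while l(2)41Ab had 0.77 and lovit 0.70, so the choice of CG40006 and MFS17 rests on the direction. The genes l(2)41Ab and lovit were picked out after their values were seen. The gene d4, at chr2R:5259004-5295965, was covered over 34.1% by H3K9me3 and 20.5% by HP1. CG40006, at chr2L:22622417-22756349, had 6.93% and 4.6%, and MFS17, at chr2R:2494742-2565385, had 21.0% and 2.26%. Each of them had interior HP1 as well as HP1 at an end. The gene d4 had HP1 within 1 kb of both ends, which none of the 6 genes had. By the same measure, the similarity of each of the 6 genes to the mean of the other 5 ran from 0.20 for Haspin to 0.53 for Gprk1. The 20 other genes ran from 0.18 to 0.86 against the mean of all 6, which is not the same mean. Values ran from the lower coordinate in every gene because the strand is not in the table. The HP1 end was the lower one in Dbp80 and Haspin and the higher one in AGO3, Parp1 and Gprk1. The mean thus holds HP1 toward both ends, a pattern of none of the 6 genes. Likeness to it is not likeness to any of them.

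Partners of the 6 products in their pathways were looked up in the same lists. Of 73 genes in 6 lists of partners, 1 held H3K9me3 (1.37%) and 7 held HP1 (9.59%), against 1.22% and 3.66% of the 13929 other protein-coding genes. None of the 20 piRNA pathway genes listed beside AGO3, which include aub, piwi and vas, held an interval of either list, nor did the 8 genes listed with Parp1 or the 8 listed with Gprk1. Beside Dbp80, 2 of 15 genes held HP1, the DEAD-box helicase genes abs with 8.22% of the body covered and bel with 4.37%. Beside Haspin, 2 of 10 held HP1, with 18.5% of mei-S332, which encodes a centromere protein protecting cohesion, and 2.74% of vtd, the gene of a cohesin subunit. The pericentric gene vtd was also the only list member under H3K9me3, with 0.834% of its body. By the limit used here abs is pericentric too, and the shares of other protein-coding genes given above are not matched for position. Beside Marf1, 3 of 12 held HP1, with 8.27% of Not3, 1.34% of twin and 0.55% of pum, which act in mRNA deadenylation or repression. Lists of this length can show neither an excess nor a lack.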

How the data were processed

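Per the submitters' processing notes, reads were handled with tools that include MACS2 2.1.2 and Bowtie2 2.3.4.1, next to bedtools 2.26 and SAMtools 1.10, on build dm6. How calls were filtered, cut into intervals or combined is not given in the sources used here. In each deposited list the fold enrichment (a ratio), the −log10 q-value and the score, a multiple of it, belong to the whole call. The summit recorded for an interval lies outside it in 54.0% of H3K9me3 and 73.5% of HP1 intervals. Files with a value per library were not analysed here.

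The RefSeq gene table (assembly Release 6 plus ISO1 MT, that is dm6) gives starts and ends but no strand, exons or sequence. Planned counts of HP1 at the transcription start and at the other end, and the planned promoter motifs, were therefore replaced by counts at either end or left out. Genes whose middle lay within 5.4 Mb (2R), 5.1 Mb (3L), 4.6 Mb (3R), 1.5 Mb (2L) or 0.9 Mb (X) of the centromere-proximal end were called pericentric. Intervals touched with at least 1 bp in common. Shares carry exact binomial (Clopper-Pearson) 95% intervals, for counting error only. No test was made. Code for counting was tested on simulated data. Python 3.11.15, pandas 2.3.3 and scipy 1.17.1 were used.

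The genes, lists and settings were chosen with earlier results of these data known. Named genes are the 6, the list members under an interval and the 3 long pericentric genes most similar to the mean of the 6. Of 75 partner names, 73 gave a single gene.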

Additional observations from a re-analysis of the deposited data

How the results depend on the processing

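No paired analysis was possible because no file analysed here has a value per replicate, and leaving out replicates in turn could not be done either. Of 52 alternative values, 48 stayed within the 95% interval of a share or within 1.5 times a count, intervals that are wide for 22 HP1 intervals. With −log10 q-values of at least 5 in both lists, 81 of 124 H3K9me3 intervals remained. With at least 10, 52 H3K9me3 intervals over 40.04 kb remained, and 15.4% of them touched HP1, since weak H3K9me3 calls were dropped while 16 of 22 HP1 intervals stayed. The share of HP1 end intervals ran from 13.6% by the middle base to 40% without AGO3, and was 18.2% within 200 bp and 34.8% within 2 kb. HP1 stood at an end in 4 genes within 200 bp, AGO3 being the gene that dropped out, and in 5 within 2 kb. By the middle base, HP1 stood at an end only in AGO3 and Parp1. The middles of the HP1 end intervals of Dbp80, Gprk1 and Haspin lay outside the gene, more than 1 kb from the end. The share of H3K9me3 end intervals ran from 2.42% to 7.69%. The planned counts by transcription start were not run, because no strand was at hand.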

Other observations

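Beyond the 6 genes, the neighbourhood was sparsely annotated. Within 20 kb of an end, no other gene was annotated around Parp1, Gprk1 or Haspin. Beside Dbp80, RpL15, a gene of the large ribosomal subunit, lies 10.9 kb below the lower-coordinate end, and 1089 bp of it lay under HP1 and 199 bp under H3K9me3. Between them, the 10 kb below Dbp80 was covered over 96.4% by H3K9me3 and 81.8% by HP1. The pseudogene CR43359 lies inside Marf1 at 31.9 kb and held no interval of either list.

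The ywdf calls gave 11 of the 124 H3K9me3 intervals of the 6 genes (8.87%), against 8.82% of the whole list, with 5 in Gprk1, 3 in Parp1, 2 in Dbp80, 1 in Marf1 and none in AGO3 or Haspin. Among them were the most enriched interior calls of Dbp80 (20.2) and Gprk1 (27.4). The call behind the 431 bp interval of Dbp80 has a recorded summit offset of 10606 bp, larger than the width of the interval. None of the 11 touched an HP1 interval, against 11 of the 113 HWT intervals (9.73%), and this difference was not tested.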
